A study of Homo sapiens with 9 samples.

Results

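MYC, its dimerisation partner MAX and 8 further factors of the same network (MXD1, MXD3, MXD4, MXI1, MNT, MLX, MLXIP and MGA) were followed through RNA sequencing of H1299, an established human lung cancer line labelled as lung adenocarcinoma cells. The 10 genes were chosen by name, matched in the gene names of the deposited expression table, and all 10 were found among its 58735 genes. The groups were KO1 and KO2, which are 2 monoclonal lines in which CRISPR editing targeted BCKDK, and Vector, cells that carried the lentiCRISPR v2 plasmid and are labelled wild type, with 3 libraries per group. BCKDK is a mitochondrial kinase that holds branched-chain ketoacid dehydrogenase in its inactive state, and the series title links it to BCLAF1, MYC, HK2, aerobic glycolysis and Trametinib, a MEK inhibitor. The labels call KO1 and KO2 monoclonal but not Vector, so the effect of editing BCKDK and that of growing a line from a single cell cannot be told apart. Both clones were compared with the same Vector libraries. Whether replicate libraries stem from separate cultures is not stated, so p-values measure only the spread among libraries, which may be technical. In RNA from bulk cells, fewer expressing cells and less RNA per cell cannot be told apart.

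MYC is a basic helix-loop-helix leucine zipper protein that activates genes for growth and metabolism, and it binds DNA only as a dimer with MAX, at the E-box CACGTG and related sites. MXD1, MXD3, MXD4, MXI1 and MNT also dimerise with MAX, bind the same sites and recruit SIN3 and histone deacetylases, so they oppose MYC. MLX joins a parallel arm: with MLXIP (MondoA) it responds to glucose-derived metabolites and activates genes such as TXNIP and ARRDC4. MGA is a very large factor with a T-box and a MAX-binding region that brings MAX into the polycomb complex PRC1.6, a silencer of germline genes. In lung cancer MYC is often amplified, and MGA and MAX are known to be lost in a share of tumours.

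Levels are in FPKM, a read number normalised for the length of a gene's exons and for a scaling factor of each library. In the deposited values this factor matched a size factor, the median over genes of a library's reads relative to all 9 libraries, and not the total reads. KO2 replicate 2, with 16654780 reads, had a size factor of 1.08, and KO1 replicate 1, with 16838601 reads, had 0.960. Differences are on the log2(FPKM + 1) scale, and adjusted p-values are from limma with Benjamini-Hochberg adjustment over the 16426 genes fitted; a gene was called at an adjusted p under 0.05. Depth, recovered from the FPKM, ranged between 16002212 and 17090445 reads. BCKDK had 1.91, 2.06 and 1.67 FPKM in KO1 and 0.628, 0.576 and 0.287 FPKM in KO2, against 13.7, 12.9 and 17.5 FPKM in Vector. Its RNA was lower in both clones than in any Vector library (-2.44 in KO1 and -3.39 in KO2, adjusted p = 3.63e-06 and 1.00e-06). Of the 5 lung adenocarcinoma lineage markers, NKX2-1, SFTPB and SFTPC were at or below 0.0751 FPKM in every library, NAPSA reached 0.514 FPKM and KRT7 reached 1.24 FPKM. Of the 4 epithelial markers, EPCAM and CDH1 were at or below 0.169 FPKM, while the keratins KRT8 and KRT18 ranged from 13.5 to 129.8 FPKM and from 53.2 to 359 FPKM. The mesenchymal marker VIM was at 454 FPKM or more. KRT8 had 130, 118 and 112 FPKM in KO1 and 15.5, 15.4 and 17.6 FPKM in KO2, against 14.8, 13.5 and 20.4 FPKM in Vector, and its part in the results for KO1 was not tested. Markers of blood, endothelial cells and fibroblasts did not exceed 0.506 FPKM. Vector replicate 3 and KO2 replicate 3 stood apart: chi-square per degree of freedom of their reads against the other libraries of their group was 44.3 to 52.6, while the other pairs within groups gave 2.44 to 6.84. Each was also the library farthest from the other two of its group in 7 of the 10 network genes.

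All 10 network genes passed the filter of a mean of at least 0.5 FPKM. The lowest, MXD3, rested on 134 to 320 reads per library and MYC on 1268 to 5135. In KO1 against Vector, 4 of the 10 genes were called, when 34.1% of all fitted genes were: MXD1 and MNT rose, and MAX and MXI1 fell (17.4% of all fitted were higher and 16.7% lower). In KO2 against Vector, 5 of 10 were called, against 27.9% of all fitted genes: MXD4 rose, and MYC, MAX, MXD1 and MLX fell (12.9% of all fitted were higher and 15% lower). In KO2 against KO1, 3 of 10 were called, against 30.9% of all fitted genes, with MXD4 and MGA higher and MXD1 lower in KO2 (14.5% of all fitted genes were higher and 16.4% lower). These counts are near the share of all genes, so the number of network genes called is not a result about the network. Libraries of the groups did not overlap for 8 of the 10 genes in KO1 against Vector (50.1% of all fitted genes), for 6 in KO2 against Vector (39%) and for 7 in KO2 against KO1 (53.6%). With Vector replicate 3 and KO2 replicate 3 left out together, 7, 8 and 6 of the 10 were called, in the same order of comparisons, when 56.8%, 49.5% and 47.7% of all fitted genes were. Of all genes called, 51.08% were higher in KO1 against Vector and 46.98% in KO2 against KO1. Scaling the libraries by their total reads instead (library-size scaling) moved these shares to 40.23% and 60.02%.

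**Figure D1:**
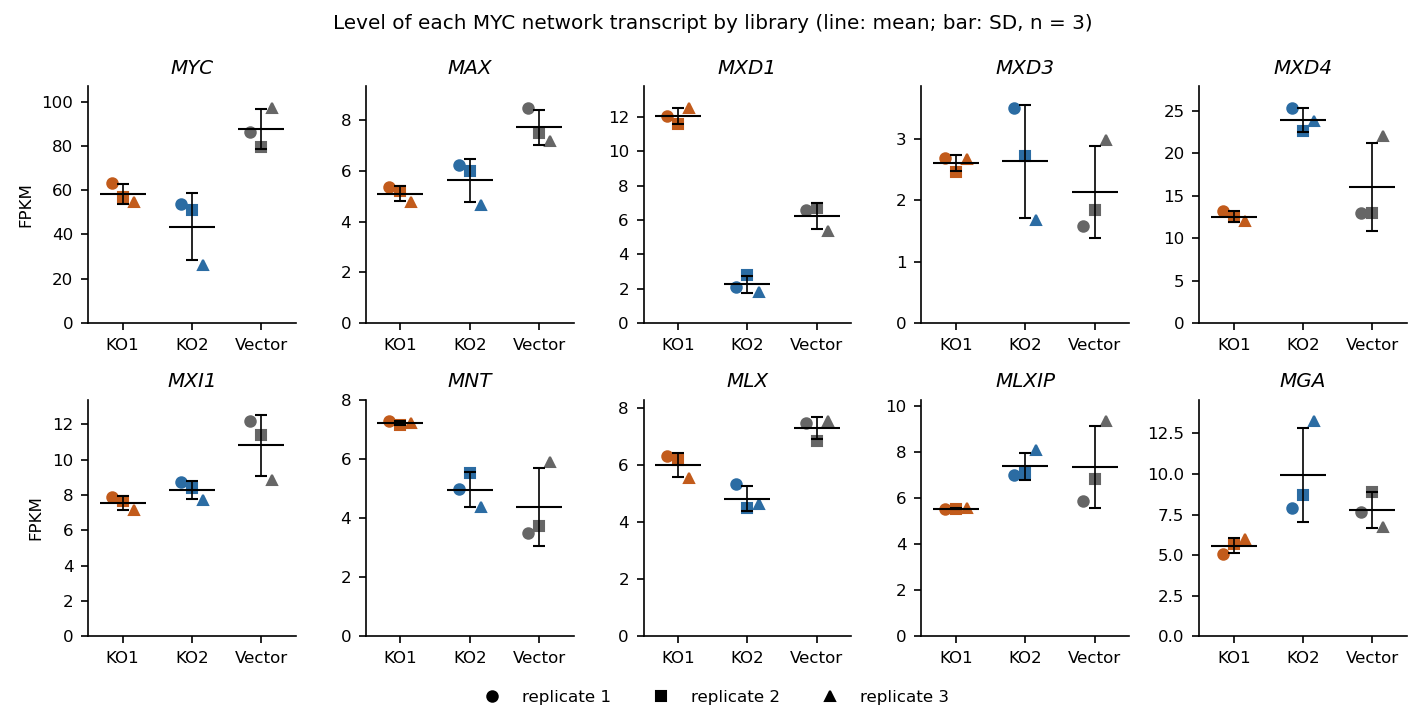
FPKM of the 10 network genes in each library of KO1, KO2 and Vector, 1 panel per gene with its own linear axis from 0; points are libraries, with a shape for each replicate number, long lines group means and error bars the SD (n = 3). MYC, MAX, MXI1 and MLX were lower in all 6 knockout libraries than in any Vector library. MXD1 was highest in KO1 and lowest in KO2, and MXD4 was highest in KO2.

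MYC had the highest level of the network in every library. It stood at 63.5, 57.1 and 54.7 FPKM in KO1 and 53.6, 50.9 and 26.1 FPKM in KO2, against 86.3, 79.4 and 97.4 FPKM in Vector. All 6 knockout libraries lay below all 3 Vector libraries, and the KO2 libraries lay below those of KO1, with KO2 replicate 3 lowest. MYC fell in KO2 by 1.06 (standard error 0.24, adjusted p = 0.0107), and this call was kept in all 20 alternative settings of scaling, filter, fit or libraries used, of which 9 left out 1 library each. Its size was smaller without KO2 replicate 3 and Vector replicate 3, at -0.65 (adjusted p = 0.000852). In KO1 the difference was -0.58 (standard error 0.24, 95% interval -1.12 to -0.04), which missed the threshold with an adjusted p of 0.09298. It passed under 6 of the 20 settings: without KO2 replicate 3 (adjusted p = 0.00334), without that library and Vector replicate 3, with quantile normalization, with voom weights on recovered reads, with library weights, and with KO1 and Vector fitted alone. KO2 minus KO1 was -0.48 (95% interval -1.02 to 0.06, adjusted p = 0.161), and without those 2 libraries it was -0.16 (adjusted p = 0.135).

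The MYC gene lies at chr8:127735434-127741434 on the plus strand (hg38, GENCODE 29). The median difference of the 43 fitted genes within 5 Mb of MYC was -0.35 in KO1 and 0.07 in KO2. Subtracting it left MYC at -0.23 in KO1 (adjusted p = 0.536) and -1.13 in KO2 (adjusted p = 0.00979), and KO2 minus KO1 then was -0.88 (adjusted p = 0.02603). Of 11 listed 8q24 genes around MYC, 8 were fitted: 2 rose and 2 fell in KO1, and 0 were called in KO2. Over all fitted genes, 17.4% rose and 16.7% fell in KO1, and 27.9% were called in KO2. PVT1, the long noncoding RNA gene next to MYC, had 4.44, 3.96 and 4.53 FPKM in KO1, 5.08, 5.17 and 3.89 FPKM in KO2 and 4.76, 4.700 and 4.86 FPKM in Vector, a difference of -0.12 in KO1 and -0.02 in KO2. PVT1 lies outside the naming rule and was chosen after its values were seen. FAM84B rose by 2.25 in KO1 (adjusted p = 3.56e-07; 0.10 in KO2, adjusted p = 0.413; KO2 minus KO1 -2.15), and SQLE, an enzyme of cholesterol synthesis, fell there by 1.28 (adjusted p = 2.14e-05). The remaining KO1 calls were ASAP1 at 0.31 and TRIB1 at -0.31; each was lost when any 1 KO1 library or Vector replicate 1 was left out, and TRIB1 also without Vector replicate 2 or KO2 replicate 1 or 2, with adjusted p-values of 0.0546 to 0.107 for ASAP1 and 0.0501 to 0.135 for TRIB1.

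Of the MYC paralogs, MYCN was listed at 0 in all 9 libraries and gave no value. MYCL had 0.0495, 0.0607 and 0.0818 FPKM in KO1 and 0.145, 0.0992 and 0.159 FPKM in KO2, against 0.492, 0.467 and 0.652 FPKM in Vector, so each knockout library was lower, but its mean lay below the filter and it was not tested.

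MAX, the shared partner of the network, was the next member lower in both clones. It had 5.36, 5.19 and 4.77 FPKM in KO1 and 6.24, 5.98 and 4.67 FPKM in KO2, against 8.504, 7.51 and 7.18 FPKM in Vector. No knockout library reached the lowest Vector library. MAX fell in KO1 by 0.51 (standard error 0.12, adjusted p = 0.00927) and in KO2 by 0.40 (standard error 0.12, adjusted p = 0.0316). The KO2 call was lost in 10 of 20 settings, among them leaving out Vector replicate 1 (adjusted p = 0.103) or 2 (adjusted p = 0.0689), any 1 KO1 library (adjusted p = 0.0507 to 0.0566), or KO2 replicate 2 (adjusted p = 0.0556) or 3 (adjusted p = 0.0614). MAX lies on chromosome 14 (chr14:65006174-65102695, minus strand), where the 58 fitted neighbours within 5 Mb had a median difference of -0.57 in KO1 and -0.17 in KO2. Relative to these neighbours MAX was at 0.05 in KO1 (adjusted p = 0.787) and -0.23 in KO2 (adjusted p = 0.196). MYC RNA stood to MAX RNA, per length, at a ratio of 11.4 ± 0.422 in KO1, 7.56 ± 1.71 in KO2 and 11.4 ± 1.86 in Vector (SD, n = 3).

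**Figure D2:**
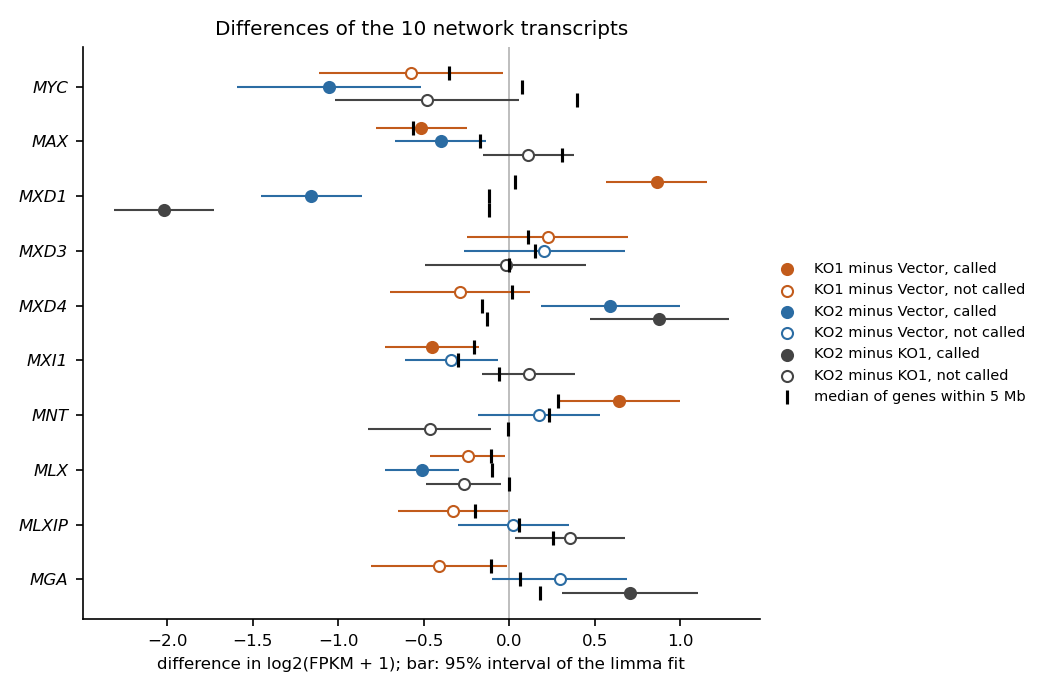
Differences in log2(FPKM + 1) of the 10 network genes in KO1 against Vector, KO2 minus Vector and KO2 minus KO1, with 95% intervals from limma; filled symbols were called at an adjusted p under 0.05, open ones were not, and black ticks are medians of fitted genes within 5 Mb. MXD1 was the member whose called differences had opposite signs, at 0.86 in KO1 and -1.16 in KO2.

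The promoters of the antagonists that differed most between the clones, MXD1 and MXD4, are printed with those of MNT and MLX because these windows show which members carry the E-box the network binds. Each window runs 5′ to 3′ on the gene's strand across the RefSeq start (GRCh38.p14). Both strands were searched for the E-box CACGTG, which reads the same on each, and for the GC box GGGCGG. Windows were on file for 9 of the 10 genes, all but MYC. CACGTG was found in MXD4, MNT and MLX, and not in MAX, MXD1, MXD3, MXI1, MLXIP or MGA, while 7.256% of 35116 promoters hold it. That set was not limited to genes with RNA in these libraries. Among fitted genes with a window, 1018 held CACGTG and 8835 did not. GGGCGG was found on either strand in 7 of the 9, against 44.954% of all promoters. In the other gene lists with windows, 60% to 100% of promoters held GGGCGG. No enrichment in the network was tested. Capitals mark CACGTG in the MXD4, MNT and MLX sequences and GGGCGG in the MXD1 sequence.
MXD1 (chr2:69914859-69915158, plus strand): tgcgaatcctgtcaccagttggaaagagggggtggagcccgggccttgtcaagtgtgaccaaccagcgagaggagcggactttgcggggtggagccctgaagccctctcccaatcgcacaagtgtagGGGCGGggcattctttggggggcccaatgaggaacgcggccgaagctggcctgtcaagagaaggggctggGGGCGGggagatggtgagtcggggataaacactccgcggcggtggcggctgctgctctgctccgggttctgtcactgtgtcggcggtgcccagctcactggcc
MXD4 (chr4:2262060-2262359, minus strand): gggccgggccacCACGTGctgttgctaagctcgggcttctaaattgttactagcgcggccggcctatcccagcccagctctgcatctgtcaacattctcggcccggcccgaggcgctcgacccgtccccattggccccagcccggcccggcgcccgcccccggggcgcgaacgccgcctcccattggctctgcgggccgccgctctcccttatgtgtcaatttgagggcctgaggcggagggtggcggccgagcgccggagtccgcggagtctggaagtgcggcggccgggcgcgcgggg
MNT (chr17:2401011-2401310, minus strand): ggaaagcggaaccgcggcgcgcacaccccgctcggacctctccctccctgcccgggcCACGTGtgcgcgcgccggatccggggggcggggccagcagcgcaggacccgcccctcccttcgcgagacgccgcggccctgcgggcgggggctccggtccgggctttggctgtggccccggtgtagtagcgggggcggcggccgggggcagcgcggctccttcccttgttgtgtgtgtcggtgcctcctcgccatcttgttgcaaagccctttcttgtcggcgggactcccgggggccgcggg
MLX (chr17:42566850-42567149, plus strand): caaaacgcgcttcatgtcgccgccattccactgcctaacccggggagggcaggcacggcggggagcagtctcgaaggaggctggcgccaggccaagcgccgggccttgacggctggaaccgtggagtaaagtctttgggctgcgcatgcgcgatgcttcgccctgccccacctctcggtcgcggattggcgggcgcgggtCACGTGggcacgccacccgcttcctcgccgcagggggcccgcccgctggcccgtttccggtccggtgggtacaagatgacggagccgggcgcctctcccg
The E-box starts 238 bases before the start in MXD4, 193 before it in MNT and 50 before it in MLX. A match describes the letters and is no measure of binding.

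MXD1 (chr2:69897688-69942945, plus strand) differed most between the clones. It is the classical MYC antagonist that appears as cells leave the cycle and differentiate. Its levels were 12.1, 11.6 and 12.5 FPKM in KO1 and 2.11, 2.81 and 1.81 FPKM in KO2, against 6.601, 6.68 and 5.36 FPKM in Vector. The 3 groups were fully separate, with KO1 above and KO2 below Vector. MXD1 rose in KO1 by 0.86 (standard error 0.13, adjusted p = 0.00108) and fell in KO2 by 1.16 (standard error 0.13, adjusted p = 0.000265). KO2 minus KO1 was -2.02 (adjusted p = 1.11e-05), and all 3 calls were kept in all 20 settings. Its fitted neighbours on chromosome 2 had medians between -0.12 and 0.03 in these comparisons. The window printed for MXD1 holds 2 GC boxes and no CACGTG.

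MXD4 (chr4:2247432-2262294, minus strand), an antagonist found in many resting and differentiated tissues, had 13.2, 12.5 and 12.00 FPKM in KO1 and 25.4, 22.6 and 23.8 FPKM in KO2, against 13.03, 12.99 and 22.1 FPKM in Vector. Every KO2 library was above every Vector library, but Vector replicate 3 was close to KO2, while KO1 lay beside the other two Vector libraries. MXD4 rose in KO2 by 0.59 (standard error 0.18, adjusted p = 0.0376). Leaving out any 1 library other than Vector replicate 3 ended that call, with adjusted p-values of 0.0579 to 0.125, and the fit with a replicate block gave 0.0554. Without Vector replicate 3 and KO2 replicate 3 the KO2 difference was 0.83 (adjusted p = 0.000182). MXD4 was higher in KO2 than in KO1 by 0.88 (adjusted p = 0.00596) in all 20 settings, and KO1 minus Vector was -0.29 (adjusted p = 0.249).

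MXI1 (chr10:110207605-110287365, plus strand), the antagonist also called MXD2, had 7.903, 7.69 and 7.13 FPKM in KO1 and 8.72, 8.39 and 7.71 FPKM in KO2, against 12.2, 11.4 and 8.86 FPKM in Vector. Both clones lay below all Vector libraries, of which replicate 3 was lowest. It fell in KO1 by 0.45 (adjusted p = 0.0187), a call lost without Vector replicate 1 (adjusted p = 0.0639) or 2 (adjusted p = 0.0656) and without KO1 replicate 2 (adjusted p = 0.0575) or 3 (adjusted p = 0.0728). The KO2 difference of -0.34 was not called (adjusted p = 0.0655), though it was without Vector replicate 3 (-0.46, adjusted p = 0.00297). With the median of its neighbours subtracted, MXI1 in KO1 was at -0.25 (adjusted p = 0.17). In KO2, where that median was -0.30, MXI1 was then at -0.04 (adjusted p = 0.849).

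MNT (chr17:2384060-2401118, minus strand), the antagonist that proliferating cells express throughout the cycle, had 7.29, 7.17 and 7.22 FPKM in KO1 and 4.99, 5.54 and 4.38 FPKM in KO2, against 3.502, 3.75 and 5.89 FPKM in Vector. The KO1 libraries were nearly equal and above all others, whereas KO2 overlapped Vector. MNT rose in KO1 by 0.64 (standard error 0.16, adjusted p = 0.0133). The call was lost without Vector replicate 2 (adjusted p = 0.0519), and with the neighbours' median of 0.29 subtracted it was at 0.35 (adjusted p = 0.136). Without Vector replicate 3, MNT was also called in KO2 (0.36, adjusted p = 0.0171). KO2 minus KO1 was -0.47 (adjusted p = 0.05104), and it was called without Vector replicate 1 (adjusted p = 0.0439) or 3 (adjusted p = 0.00331).

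MXD3 (chr5:177301461-177312757, minus strand), linked to proliferating cells late in the cycle, was the lowest member, with 2.69, 2.46 and 2.67 FPKM in KO1, 3.51, 2.72 and 1.68 FPKM in KO2 and 1.58, 1.85 and 2.99 FPKM in Vector. The groups overlapped in each comparison and no difference was called (0.23 in KO1 and 0.21 in KO2, adjusted p = 0.4405 and 0.504). With Vector replicate 3 and KO2 replicate 3 left out it was called higher in both clones (0.41 and 0.60, adjusted p = 0.0128 and 0.00479). Its value is uncertain, since 40.4% of its exon bases are shared with RAB24 on the same strand and PRELID1 on the opposite strand, and the strand setting of the counting is not given in the sources used here. MLX shares 18.1% of its exon bases with PSMC3IP and MNT 12.2% with an antisense gene, both on the opposite strand.

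The summed RNA of the 5 antagonists was 42.0 ± 0.968 FPKM in KO1, 42.1 ± 2.70 FPKM in KO2 and 39.6 ± 4.85 FPKM in Vector (SD, n = 3). The Vector libraries had 36.9, 36.7 and 45.2 FPKM. Vector replicates 1 and 2 thus lay below every knockout library, and Vector replicate 3 lay above them. The makeup of the sum also differed between the groups. MXD1 made up 28.7 ± 1.26% of the sum in KO1, 5.33 ± 1.17% in KO2 and 15.99 ± 3.58% in Vector. MXD4 made up 29.9 ± 0.883% in KO1, 57.0 ± 3.35% in KO2 and 39.9 ± 7.79% in Vector. The ratio of MXD1 to MXD4 thus was 0.963 ± 0.0713 in KO1, 0.0945 ± 0.0261 in KO2 and 0.421 ± 0.155 in Vector. Vector replicate 3 stood apart here too, with a ratio of 0.243 beside 0.506 and 0.514 in Vector replicates 1 and 2. MXD4 made up 48.9% of the sum in Vector replicate 3, beside 35.3% and 35.4%. MYC stood at 1.39 ± 0.0777 times the antagonist sum in KO1, 1.02 ± 0.312 times in KO2 and 2.22 ± 0.103 times in Vector. These sums describe RNA levels per length and were not tested, since they combine genes already described one by one.

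**Figure D3:**
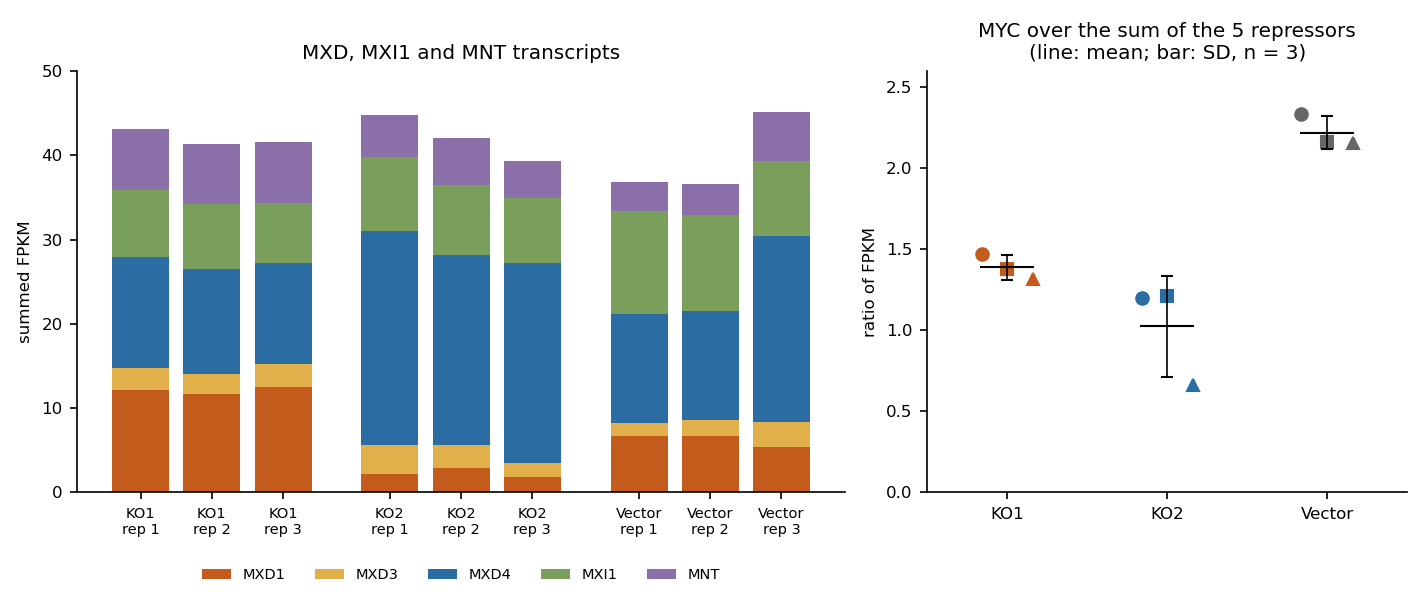
Left, FPKM of MXD1, MXD3, MXD4, MXI1 and MNT stacked for each library of KO1, KO2 and Vector; right, the ratio of MYC to that sum in each library, on a linear axis from 0, with lines for group means and error bars for the SD (n = 3). MXD1 and MXD4 were close to each other in KO1, MXD4 held 57.0% of the sum in KO2 on average, and all 6 knockout libraries had a lower MYC ratio than any Vector library.

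In the MLX arm, MLX (chr17:42567068-42573239, plus strand) had 6.297, 6.17 and 5.53 FPKM in KO1 and 5.32, 4.49 and 4.64 FPKM in KO2, against 7.46, 6.84 and 7.54 FPKM in Vector. The groups were separate, with KO2 lowest and Vector highest. MLX fell in KO2 by 0.51 (standard error 0.10, adjusted p = 0.004605), in all 20 settings. KO1 minus Vector was -0.24 (adjusted p = 0.0819) and KO2 minus KO1 -0.27 (adjusted p = 0.0646, called without Vector replicate 3 at 0.0346). MLXIP (chr12:122078722-122147347, plus strand), the glucose-sensing partner, had 5.53, 5.51 and 5.57 FPKM in KO1 and 6.98, 7.07 and 8.06 FPKM in KO2, against 5.88, 6.81 and 9.33 FPKM in Vector. KO1 was tight and below both other groups, and KO2 lay within the wide Vector range. No MLXIP difference was called (-0.33 in KO1 and 0.02 in KO2, adjusted p = 0.105 and 0.919), but in KO1 it was called without Vector replicate 1 (-0.46, adjusted p = 0.04), and KO2 minus KO1, at 0.35, was called without Vector replicate 3 (adjusted p = 0.00915). The ratio of MLXIP to MLX was 0.927 ± 0.0703 in KO1, 1.54 ± 0.214 in KO2 and 1.01 ± 0.225 in Vector. MLXIPL (ChREBP), the other glucose-responsive partner of MLX, had 0 to 0.0130 FPKM in KO1 and 0.153, 0.255 and 0.1796 FPKM in KO2, against 0.631, 0.491 and 0.804 FPKM in Vector, below the filter.

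Genes that MLX dimers are known to regulate moved in different directions. Of 7 fitted among 9 listed, 1 rose and 2 fell in KO1, and 2 rose and 2 fell in KO2, with medians of -0.10 and -0.02 beside 0.0083 and -0.0049 over all fitted genes. Shares over all fitted genes were 17.4% higher and 16.7% lower in KO1, and 12.9% and 15% in KO2. TXNIP, the most used readout of MondoA, was listed at 0 in all 9 libraries and gave no value. ARRDC3, an arrestin-domain protein, had 19.98, 18.8 and 19.1 FPKM in KO1 and 20.7, 23.1 and 32.1 FPKM in KO2, against 11.5, 10.5 and 7.52 FPKM in Vector, and it rose in both clones (0.92 and 1.27, adjusted p = 0.00437 and 0.00102). Its relative ARRDC4 was low, at 0.246, 0.287 and 0.291 FPKM in KO1 and 1.11, 1.15 and 1.17 FPKM in KO2, against 0.716, 0.566 and 0.349 FPKM in Vector. ARRDC4 passed the filter only through KO2, so no test is given for it. Without it, 1 of 6 rose and 2 fell in KO1, and 1 rose and 2 fell in KO2. HK2, the hexokinase of the series title that both MYC and MondoA are known to activate, fell in KO2 by 0.96 (adjusted p = 0.0003502) and was at 0.05 in KO1 (adjusted p = 0.747). The fatty acid synthesis genes FASN and ACACA fell in KO1 (-2.03 and -1.26, adjusted p = 0.000442 and 0.000623). Both were higher in KO2 than in KO1, by 1.78 and 1.24 (adjusted p = 0.001104 and 0.000794).

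MGA, the partner of MAX in PRC1.6 (chr15:41621224-41773081, plus strand), had 5.08, 5.68 and 5.97 FPKM in KO1 and 7.91, 8.700 and 13.3 FPKM in KO2, against 7.68, 8.91 and 6.75 FPKM in Vector. The KO1 libraries were the lowest of the 9, KO2 overlapped Vector, and KO2 replicate 3 was far above the rest. MGA was higher in KO2 than in KO1 by 0.71 (standard error 0.18, adjusted p = 0.0145). That call was lost without KO1 replicate 1 (adjusted p = 0.0579) and with the neighbours' median subtracted (0.53, adjusted p = 0.0565). KO1 minus Vector was -0.41 (adjusted p = 0.1001) and was called without KO2 replicate 3 (adjusted p = 0.0206), and KO2 minus Vector was 0.30 (adjusted p = 0.243).

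Among the 16 other PRC1.6 subunits, all fitted, 3 rose and 1 fell in KO1, 2 rose and 2 fell in KO2, and 0 were higher and 6 lower in KO2 than in KO1 (medians 0.11, -0.13 and -0.23 beside 0.0083, -0.0049 and -0.017 over all fitted genes). Shares over all fitted genes were 17.4% higher and 16.7% lower in KO1, and 12.9% and 15% in KO2. For KO2 against KO1 they were 14.5% and 16.4%. PCGF6, the subunit that defines the complex, had 6.75, 7.11 and 6.31 FPKM in KO1 and 5.21, 4.79 and 4.68 FPKM in KO2, against 12.04, 9.41 and 8.82 FPKM in Vector, and fell in both clones (-0.51 and -0.90, adjusted p = 0.0102 and 0.000677). RYBP, which joins the ring-finger subunits, rose in both (0.76 and 0.50, adjusted p = 0.0003505 and 0.0047). Its neighbours had medians of 0.12 and 0.26, and the KO2 call was lost with the median subtracted. In KO1, the histone demethylase KDM5C rose by 1.13 (adjusted p = 0.00136) and the E2F partner TFDP1 by 0.63 (adjusted p = 0.00587). The neighbours of TFDP1 had a median of 0.57, and its call was lost with that subtracted. The histone deacetylase HDAC2 fell in KO2 by 0.92 (adjusted p = 0.00327), where its neighbours had a median of -0.49, and the call was lost with that subtracted.

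Of 20 germline genes known as PRC1.6 targets, 7 had enough RNA to be fitted: 0 rose and 2 fell in KO1, and 0 rose and 5 fell in KO2, with medians of -0.22 and -0.69 beside 0.0083 and -0.0049 over all fitted genes. Shares over all fitted genes were 17.4% higher and 16.7% lower in KO1, and 12.9% and 15% in KO2. MEIOC, needed for meiotic entry, had 0.691, 0.586 and 0.976 FPKM in KO1 and 1.93, 1.98 and 2.55 FPKM in KO2, against 4.82, 5.29 and 4.33 FPKM in Vector. The 3 groups were separate, and MEIOC fell in both clones (-1.73 and -0.89, adjusted p = 1.42e-05 and 0.00107). The meiotic cohesin gene SMC1B had 0.0737, 0.1301 and 0.236 FPKM in KO1 and 0.213, 0.262 and 0.319 FPKM in KO2, against 1.14, 1.64 and 1.06 FPKM in Vector. It passed the filter only through Vector, so no test is given for it. Without SMC1B, 0 of 6 rose and 1 fell in KO1, and 0 rose and 4 fell in KO2 (medians -0.069 and -0.65). MEIOB, a meiotic recombination factor, fell in KO2 by 0.92 (adjusted p = 0.00263). Its KO1 difference was -0.22 (adjusted p = 0.306).

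Genes that MYC is known to activate were called in both directions in each clone. Of 46 fitted among 47 listed, 11 rose and 5 fell in KO1, with a median of 0.11 beside 0.0083 over all fitted genes. In KO2, 3 rose and 9 fell, with a median of -0.17 beside -0.0049, and 2 were higher and 16 lower in KO2 than in KO1 (median -0.23 beside -0.017). Shares over all fitted genes were 17.4% higher and 16.7% lower in KO1, and 12.9% and 15% in KO2. For KO2 against KO1 they were 14.5% and 16.4%. The nucleolar genes NOLC1 and FBL, which serve ribosome biogenesis, fell in both clones. NOLC1 had 45.4, 43.7 and 43.1 FPKM in KO1 and 35.9, 36.1 and 35.3 FPKM in KO2, against 62.5, 61.99 and 56.9 FPKM in Vector (-0.45 and -0.74, adjusted p = 0.004303 and 0.000352). FBL differed by -0.68 and -0.91 (adjusted p = 0.00214 and 0.000586), where its neighbours had medians of -0.43 and -0.46, and the KO1 call was lost with the median subtracted.

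Among the activated targets, the metabolic genes ODC1, SLC1A5 and SHMT2 rose in KO1. ODC1, the first enzyme of polyamine synthesis, had 201, 178 and 172 FPKM in KO1 and 58.4, 57.9 and 56.9 FPKM in KO2, against 80.3, 72.97 and 68.9 FPKM in Vector. KO1 was above and KO2 below all Vector libraries, and ODC1 rose in KO1 by 1.30 (adjusted p = 2.45e-05) and was lower in KO2 than in KO1 by 1.65 (KO2 minus KO1 -1.65, adjusted p = 9.86e-06). The glutamine transporter SLC1A5 rose in KO1 by 1.44 (adjusted p = 0.000407), as did SHMT2, the mitochondrial serine hydroxymethyltransferase, by 1.13 (adjusted p = 0.000512). Their KO2 differences of 0.12 and -0.11 were not called (adjusted p = 0.671 and 0.618), and both were lower in KO2 than in KO1 (-1.32 and -1.24, adjusted p = 0.000794 and 0.000369).

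Genes that MYC is known to repress were called in both directions in KO1. Of 11 fitted among 14 listed, 6 rose and 2 fell in KO1 (median 0.83 beside 0.0083 over all fitted genes), and 4 rose and 0 fell in KO2 (median 0.03 beside -0.0049). Shares over all fitted genes were 17.4% higher and 16.7% lower in KO1, and 12.9% and 15% in KO2. THBS1, the angiogenesis inhibitor thrombospondin, had 48.98, 50.8 and 47.9 FPKM in KO1 and 30.9, 30.5 and 48.6 FPKM in KO2, against 7.65, 7.33 and 7.500 FPKM in Vector, and rose in both clones (2.56 and 2.11, adjusted p = 6.21e-06 and 2.88e-05). NDRG1, a stress-response gene, had 5.75, 5.19 and 4.82 FPKM in KO1 and 0.0461, 0.0341 and 0.0503 FPKM in KO2, against 0.155, 0.168 and 0.319 FPKM in Vector. Every KO1 library lay above all others, but NDRG1 passed the filter only through KO1, so no test is given for it. The chaperone gene CLU rose in KO2 by 2.45 (adjusted p = 1.07e-06) and was at 0.29 in KO1 (adjusted p = 0.0615). NDRG2, a relative of NDRG1, had 0.0498, 0.0163 and 0.0313 FPKM in KO1 and 1.11, 1.15 and 0.924 FPKM in KO2, against 0.571, 0.587 and 0.618 FPKM in Vector. It passed the filter only through KO2 and is likewise given without a test. Without NDRG1 and NDRG2, 5 of 9 rose and 1 fell in KO1, and 3 rose and 0 fell in KO2. Against the list's name, CEBPA fell in KO1 by 0.90 (adjusted p = 0.0116). Its neighbours had a median of -0.71, and the call was lost with that subtracted.

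**Figure D4:**
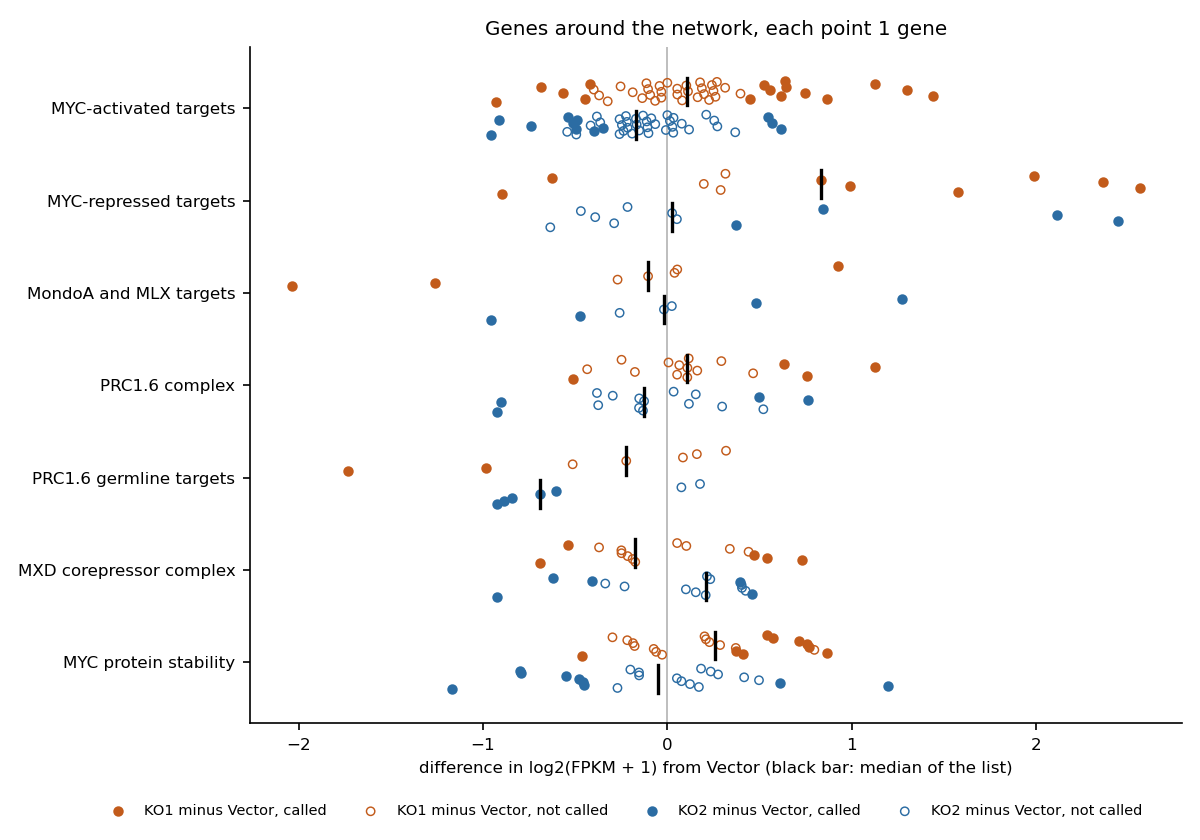
Difference in log2(FPKM + 1) from Vector for each fitted gene of 7 lists around the network, KO1 in the upper and KO2 in the lower row of each list; each point is 1 gene, filled where called, and black bars are list medians. The MYC-repressed list had the highest median in KO1, 0.83, and the germline list the lowest in KO2, -0.69 (-0.65 without SMC1B). ARRDC4, NDRG1, NDRG2 and SMC1B are drawn too, but they passed the filter only through 1 group. For these genes a filled point is not to be read as a test result.

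Regulators of MYC protein turnover were called in both directions in each clone. Of 22 fitted among 23 listed, 8 rose and 1 fell in KO1 (median 0.26 beside 0.0083 over all fitted genes), 2 rose and 7 fell in KO2 (median -0.05 beside -0.0049), and 2 were higher and 7 lower in KO2 than in KO1. Shares over all fitted genes were 17.4% higher and 16.7% lower in KO1, and 12.9% and 15% in KO2. For KO2 against KO1 they were 14.5% and 16.4%. The mitotic kinase PLK1 had 29.3, 25.1 and 24.2 FPKM in KO1 and 8.91, 9.08 and 7.66 FPKM in KO2, against 13.96, 13.8 and 19.4 FPKM in Vector. It rose in KO1 (0.71, adjusted p = 0.00502) and fell in KO2 (-0.80, adjusted p = 0.00361). USP36, a nucleolar deubiquitinase, and AURKB, a mitotic kinase, rose in KO1 (0.76 and 0.87, adjusted p = 0.00234 and 0.00563). Both were lower in KO2 than in KO1 (-1.21 and -1.42, adjusted p = 0.000209 and 0.000466). Against Vector, USP36 and AURKB fell in KO2 (-0.45 and -0.55, adjusted p = 0.0321 and 0.0476). These calls were lost in 7 and 6 of the 9 fits that left out 1 library. In KO2, the ubiquitin ligase subunit SKP2 and the kinase GSK3A, whose family marks MYC for destruction, fell by 0.80 and 1.17 (adjusted p = 0.000208 and 0.000602), and FBXO32, another ligase subunit, rose by 1.20 (adjusted p = 4.91e-05). FBXO32 also rose in KO1 by 0.37 (adjusted p = 0.0195). That KO1 call was lost without Vector replicate 1 (adjusted p = 0.0649) or KO1 replicate 2 (adjusted p = 0.0901).

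Of 19 fitted genes that act on MYC transcription or MYC mRNA, 4 rose and 1 fell in KO1, and 1 rose and 3 fell in KO2 (medians 0.18 and -0.15 beside 0.0083 and -0.0049 over all fitted genes). Shares over all fitted genes were 17.4% higher and 16.7% lower in KO1, and 12.9% and 15% in KO2. BCLAF1, the factor of the series title, had 38.6, 39.3 and 39.3 FPKM in KO1 and 34.1, 34.5 and 41.9 FPKM in KO2, against 40.7, 40.3 and 27.4 FPKM in Vector, with no difference called (0.13 and 0.04, adjusted p = 0.558 and 0.871); it is named for the title and not by the rule. YY1, a zinc finger factor, fell in KO1 by 0.98 (adjusted p = 7.82e-05), where its neighbours had a median of -0.49. E2F1, a cell cycle activator of MYC, rose in KO1 by 0.87 (adjusted p = 0.00784). STAT3 rose in KO2 by 0.57 (adjusted p = 0.00241). The mRNA-binding proteins IGF2BP3 and HNRNPC fell in KO2, by 0.60 and 0.45 (adjusted p = 0.00822 and 0.0102), and the HNRNPC call was lost with KO2 and Vector fitted alone.

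Of 19 chromatin cofactors of MYC, all fitted, 3 rose and 1 fell in KO1, and 3 rose and 2 fell in KO2 (medians 0.015 and 0.038 beside 0.0083 and -0.0049 over all fitted genes). For this list and the next, the shares over all fitted genes were 17.4% higher and 16.7% lower in KO1. In KO2 they were 12.9% and 15%. RUVBL2, an ATPase of chromatin remodelers, had 94.97, 89.4 and 81.3 FPKM in KO1 and 63.1, 59.2 and 69.8 FPKM in KO2, against 34.5, 31.6 and 50.02 FPKM in Vector, and rose in both clones (1.20 and 0.74, adjusted p = 0.000658 and 0.0104). Its neighbours had medians of 0.27 and 0.43, and the KO2 call was lost with the median subtracted. The elongation factor PAF1 fell in both (-0.75 and -0.83, adjusted p = 0.00107 and 0.000816), where its neighbours had medians of -0.44 and -0.47, and both calls were lost with these subtracted. Of the 15 subunits of the SIN3 corepressor that MXD proteins recruit, 3 rose and 2 fell in KO1, and 2 rose and 3 fell in KO2. Their medians were -0.17 and 0.21, beside the same medians over all fitted genes. The scaffold SIN3A was higher in KO2 than in KO1 by 0.83 (adjusted p = 0.00162), and ARID4A fell in KO1 by 0.69 (adjusted p = 0.00232), where its neighbours had a median of -0.50, and the call was lost with that subtracted.

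Of 7 fitted E-box factors of the same protein family outside the network, 1 rose and 2 fell in KO1, and 1 rose and 3 fell in KO2. Their medians were -0.12 and -0.25, beside 0.0083 and -0.0049 over all fitted genes. Over all fitted genes, 17.4% rose and 16.7% fell in KO1, and 12.9% rose and 15% fell in KO2. USF1 and USF2, which bind the same CACGTG, were called in both clones. USF1 rose by 1.12 in KO1 (adjusted p = 0.000742) and by 0.57 in KO2 (adjusted p = 0.0263). The KO2 call of USF1 was lost with the neighbours' median subtracted. It was also lost without Vector replicate 1 or 2 or KO2 replicate 1 or 2 (adjusted p = 0.0654 to 0.0926). USF2 fell in both clones (-0.76 and -1.08, adjusted p = 0.00654 and 0.00131). Its neighbours had medians of -0.60 and -0.67, and both USF2 calls were lost with these subtracted. TFE3, a lysosomal regulator, fell in KO2 by 0.80 (adjusted p = 0.00294), where its neighbours had a median of -0.41, and the call was lost with that subtracted. SREBF1, the sterol and lipid regulator, fell in KO1 (-1.35, adjusted p = 0.00129). Among fitted genes with a promoter window, 20.4% of the 1018 that hold CACGTG were higher and 17.98% lower in KO1, against 20.6% and 17.9% of the 8835 without it. In KO2, 10.6% of those with CACGTG were higher and 19.5% lower, against 14.4% and 17.4% without it. These shares are descriptions over genes, with no test.

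Among the 5 protein-coding genes whose levels were most like those of MYC over the 9 libraries, out of 6916 candidates with a mean of at least 5 FPKM, were TERF2IP (Pearson r of log2 values 0.994), APMAP (0.980), CSTB (0.974) and RPS19 (0.974). TERF2IP, a telomere protein, had 16.3, 15.5 and 14.7 FPKM in KO1 and 14.1, 14.02 and 9.19 FPKM in KO2, against 20.6, 18.4 and 20.5 FPKM in Vector. These 4 were lowest in KO2 replicate 3, as MYC was, and the 9 points fall into 3 groups that share depth and scaling, so these values describe likeness of pattern only.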

How the data were processed

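RNA from H1299 cells was sequenced in 9 libraries, 3 each from KO1, KO2 and Vector. Per the submitters' processing notes, the tools were CASAVA 1.6, then HISAT2 2.0.5, and also featureCounts 1.5.0-p3, with the build hg38. How strand and multi-mapped reads were treated is not given in the sources used here. The deposited table holds FPKM for 58735 genes. Each value times the GENCODE 29 exon length gave whole reads, within 0.02 reads, for 100% of values, and these gave the depth of 16002212 to 17090445 reads per library. The values were taken as log2(FPKM + 1) of the FPKM deposited by the authors, whose scaling between libraries followed the size factors and not the total reads. The 16426 genes whose 9-library mean reached 0.5 FPKM entered limma 3.58.1 under R 4.3.3 with a trended prior, with the 9 libraries in 1 fit and the group as the only term. This scale understates changes of low genes. P-values are two-sided and Benjamini-Hochberg adjusted over all fitted genes in each of the 3 comparisons. The procedure was run on simulated data in which every library had the same spread. That run therefore cannot speak to libraries that stand apart, as Vector replicate 3 and KO2 replicate 3 did. Sequences of promoters came from RefSeq (GRCh38.p14).

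The median difference of fitted genes within 5 Mb, given where at least 5 were fitted, is the neighbour median. The network genes and all lists were chosen with earlier results of these data known. By the naming rule, all 10 network genes and BCKDK are named, any gene of lists of up to 9 genes may be, and up to 3 rising and 3 falling genes with the smallest adjusted p from longer lists; the 5 genes most like MYC follow a rule of correlation. Of the genes this rule gives, 2 are not reported here. The 20 alternatives were a pseudocount of 0.1, no filter, a filter at 2 FPKM, library-size scaling, quantile normalization, voom on recovered reads, a replicate block, the 2 groups alone, library weights, neighbour medians subtracted, Vector replicate 3 and KO2 replicate 3 left out together, and each library left out in turn.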

Additional observations from a re-analysis of the deposited data

Results flagged for a closer look

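For 3 network genes the difference from Vector was not the same in the 2 clones by the test of KO2 against KO1 itself. MXD1 was lower in KO2 than in KO1 by 2.02 on the log2(FPKM + 1) scale (KO2 minus KO1 -2.02, limma adjusted p = 1.11e-05), with 2.24 ± 0.514 FPKM in KO2 and 12.1 ± 0.474 FPKM in KO1 (SD, n = 3). MXD4 was higher in KO2 by 0.88 (limma adjusted p = 0.00596). MGA was higher in KO2 by 0.71 (limma adjusted p = 0.0145), and that call was lost without KO1 replicate 1, with an adjusted p of 0.0579, and with neighbour medians subtracted. Of all fitted genes, 30.9% passed the same test. No group had the 4 libraries that a search for single outlying samples needs.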

How the results depend on the processing

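Over the 20 alternatives, the 3 MXD1 calls, the falls of MYC and MLX in KO2 and the MXD4 difference between the clones were kept in each. With library weights, 10779, 10061 and 9764 genes and 9, 8 and 8 network genes were called (KO1 and KO2, each against Vector, then KO2 against KO1). Without Vector replicate 3 and KO2 replicate 3 the numbers were 9335, 8138 and 7834 genes and 7, 8 and 6 network genes. With neighbour medians subtracted, 1 network gene (MXD1) was called in KO1 against Vector. Without a filter, 3 (MYC, MXD1 and MLX) were called in KO2 against Vector. With the 2 groups alone, 2963 genes and 3 network genes were called in KO2 against Vector, and 5 network genes in KO2 against KO1. Where no number of all genes called stands beside such a count, it was not set against the share over all genes. It is then not a result about the network. Leaving out 1 library each gave 3705 to 7367 genes and 2 to 6 network genes in KO1 against Vector, 3203 to 6531 and 3 to 7 in KO2 against Vector, and 3337 to 6756 and 2 to 6 in KO2 against KO1. Fewer libraries are a part of each such fit; otherwise the cause was not tested.

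With neighbour medians subtracted, signs reversed for MAX in KO1 (0.052) and in KO2 minus KO1 (-0.19), TRIB1 in KO1 (0.077) and in KO2 minus KO1 (-0.071), and MNT (-0.058) and MLXIP (-0.035) in KO2. MLXIP in KO2, at -0.10 to 0.19 with 1 library left out, also reversed without Vector replicate 1 (-0.10), Vector replicate 2 (-0.01) or KO2 replicate 3 (-0.03), and MGA in KO2 with library weights (-0.0076). MXD3 in KO2 minus KO1 reversed with library-size scaling (0.063), with library weights (0.11), and without KO2 replicate 3, alone or with Vector replicate 3 (0.18). Among the named genes outside the network, a gene's call in 1 comparison was lost in 205 cases and kept in 2042.

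No pairing of the libraries by replicate number was seen. Deviations of same-numbered libraries correlated at -0.20 to 0.14. The best match in another group had the same number in 4 of 18 cases. As Vector replicate 3 and KO2 replicate 3 stood apart, a weak pairing could have been missed. With the replicate block, 4911, 3953 and 4428 genes and 4, 4 and 3 network genes were called. MXD3, with 134 to 320 reads per library, had the fewest reads among the members. The counts without genes that passed the filter through 1 group were added after seeing the data.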
